A study of Mus musculus with 6 samples.

Results

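Respiratory complex I (NADH:ubiquinone oxidoreductase) was followed through its nuclear-encoded subunit genes in RNA from mouse heart. The members were the rows of the deposited expression table whose symbol is Nduf followed by a, ab, b, c, s or v and a number, which gave 37 of 24525 rows. Assembly factors (Ndufaf) and rows marked as pseudogenes fall outside this rule, and the subunits encoded by mitochondrial DNA are not analysed here. Each of the 37 members passed the filter on low values, set at 1 TPM or more in at least 3 libraries. TPM is a transcript abundance scaled to transcript length and to the library total, so levels can be compared between genes, while between libraries they also depend on what the most abundant RNAs take of the total.

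The 6 libraries came from total RNA of hearts taken at 3 to 6 months of age. The 3 WT libraries (replicates 4, 5 and 6) are described in the labels as wild type and nothing more. The 3 DKO libraries (replicates 7, 8 and 9) came from Mbnl1-/-; Mbnl2cond/cond; Myh6-Cre+/- mice, in which Mbnl1 carries a constitutive loss and Mbnl2 is targeted where the Myh6 promoter drives Cre recombinase, that is in cardiomyocytes. MBNL1 and MBNL2 are RNA-binding proteins that control alternative splicing and are sequestered by CUG repeat RNA in myotonic dystrophy. DKO replicate 7 carries the genotype tag WT but the DKO title and source name, and was counted as DKO.

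Complex I is the largest enzyme of the mitochondrial electron transport chain. Its matrix arm takes electrons from NADH through the N module and passes them along iron-sulfur clusters to ubiquinone in the Q module, and its membrane arm uses the energy released to pump protons. Cardiac muscle is packed with mitochondria and draws most of its ATP from this chain. A small set of core subunits is conserved from bacteria, and some of them carry the cofactors. The many supernumerary (accessory) subunits around the core are needed for assembly and stability.

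Facts of the whole series were as follows. Mbnl1 stood at 161, 159.8 and 145 TPM in WT and 102, 108 and 107 TPM in DKO, and Mbnl2 at 189, 168 and 149 TPM in WT and 227, 239.7 and 245 TPM in DKO. The summed Mbnl2 value was thus higher, not lower, in the DKO libraries. Mbnl1 was called lower and Mbnl2 higher (limma, Benjamini-Hochberg adjusted p = 0.00673 and 0.0232). With 1 library left out, the Mbnl1 call was kept in 6 of 6 fits and the Mbnl2 call in 1 of 6. For both genes DKO 7 lay with DKO 8 and DKO 9, outside the WT range. Which exons are deleted is not given in the sources used here, and for Mbnl2 whole hearts also hold cells without Cre. These gene-level values alone therefore do not check the genotypes. DKO 7 and DKO 8 held Xist and almost no Y-linked transcripts, whereas DKO 9 and the WT libraries held 163 to 179 TPM of Y-linked transcripts, so sex and genotype are partly confounded. Haemoglobin took between 0.321% and 3.83% of TPM, with the highest share in WT 5. The 8 cardiomyocyte markers (Myh6, Tnnt2, Tnni3, Actn2, Ryr2, Pln, Myl2, Myl3) were abundant in each library, with summed levels of 65612 to 66044 TPM in WT and 60403 to 62141 TPM in DKO. Of all 14541 genes tested, 614 were called lower and 946 higher in DKO.

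The summed transcript level of the complex I subunits was lower in the DKO libraries, with 10 of the 37 members called lower, 12 overlapping between the groups and Ndufa11 higher in each DKO library. Their summed level was 29973, 28214 and 28597 TPM in WT 4, 5 and 6, and 25801, 24919 and 26191 TPM in DKO 7, 8 and 9. The highest DKO library thus lay below the lowest WT library, and the DKO mean was 0.886 of the WT mean (25637 ± 652 against 28928 ± 925 TPM, SD, n = 3 each). As a share of the transcriptome this was 2.82% to 3.00% in WT and 2.49% to 2.62% in DKO. The median log2 difference (DKO minus WT, computed from log2(TPM + 1)) over the 37 members was -0.20, against 0.033 over all genes tested. Of the 37 members 32 had a difference below 0, a share of 86.5%, compared with 45.3% of all genes tested.

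Of the 37 members 10 were called lower and 0 higher (limma, Benjamini-Hochberg (BH) adjusted p under 0.05 over all genes tested). That is 27.0% of members called lower, against a background of 4.22% called lower and 6.51% called higher among all genes. At an unadjusted p under 0.05, 18 members were lower and 1 higher in DKO, where 11% of all genes were lower and 16% higher. In 24 members each DKO value lay below each WT value, 64.9% of members against 13.8% of all genes. Only Ndufa11 had the reverse arrangement, which 19.1% of all genes showed, and the remaining 12 members overlapped between the groups. The 10 called members fell to between 0.761 and 0.839 of their WT mean. The standard error of the log2 difference had a median of 0.069 over the members. The number called rested on every library, being 0 without WT 4, 3 without WT 5, 1 without WT 6, 3 without DKO 7, 1 without DKO 8 and 1 without DKO 9, while 18 to 21 members had an unadjusted p under 0.05 in each of these fits. It was 0 when eBayes in limma was run without its mean-variance trend (15 members with an unadjusted p under 0.05) and 0 when replicate 7 was placed with WT, as its genotype tag has it (4 members).

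**Figure D1:**
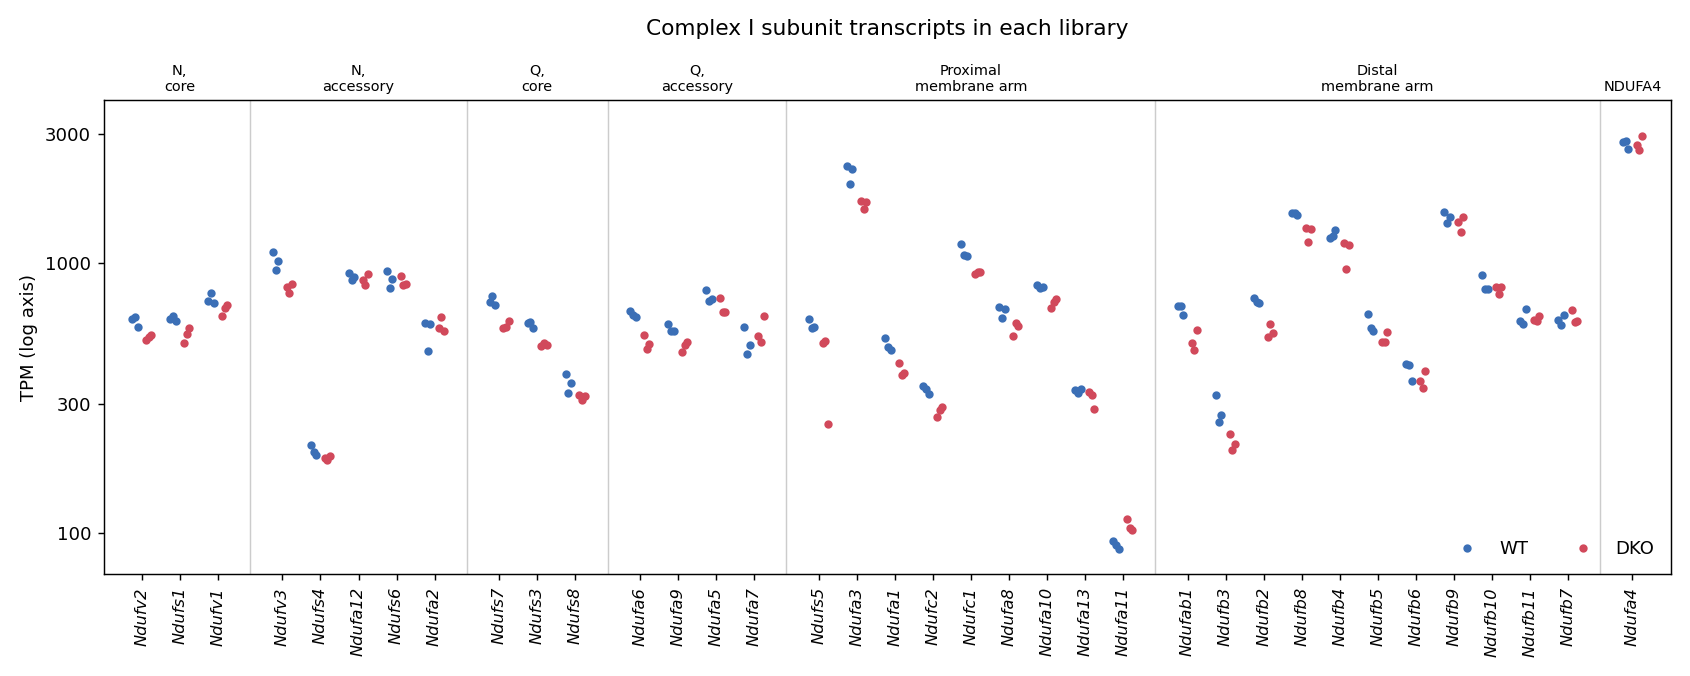
TPM of 36 of the 37 members (log axis) in the 3 WT (blue) and 3 DKO (red) libraries, grouped by position in the complex and ordered within a group by the difference. WT means ran from 90.1 TPM for Ndufa11 to 2754 TPM for Ndufa4, and in most members shown the DKO points lie below the WT points.

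Levels differed widely among genes whose products sit in the same enzyme. Over the members the WT mean ran from 90.1 TPM (Ndufa11) through a median of 645 TPM to 2754 TPM (Ndufa4). Ndufa4 and Ndufa3 alone made up 9.52% and 7.44% of the summed WT level, whereas Ndufs4, Ndufb3 and Ndufa11 contributed 0.697%, 0.984% and 0.311%. In DKO the share of Ndufa4 was 10.8%, since its own level hardly differed while the sum was lower, and the share of Ndufa3 was 6.45%.

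In the Q module, where electrons reach ubiquinone, the core subunits Ndufs7 and Ndufs3 were called lower, and Ndufs8 was not. Ndufs7 encodes the subunit that holds the last iron-sulfur cluster of the chain, beside the ubiquinone site. It stood at 717, 752 and 694 TPM in WT and 571, 580.0 and 607 TPM in DKO, with no overlap (log2 difference -0.30, SE 0.059; adjusted p = 0.0259, limma with BH; GRCm38.p6, chromosome 10, 80249105 to 80256794; the same build holds for the positions of the other members). Ndufs3, whose product links the ubiquinone site to the rest of the matrix arm, had 596, 605 and 575 TPM in WT against 489.7, 504 and 496 TPM in DKO. The tight DKO values of Ndufs3 lay well clear of WT (log2 difference -0.25, SE 0.053; adjusted p = 0.03, limma with BH; chromosome 2, 90894627 to 90904721). Ndufs8, a carrier of iron-sulfur clusters, had 385, 329 and 357 TPM in WT and 325, 309.9 and 322 TPM in DKO. Its interval, -0.33 to 0.012, included 0 (adjusted p = 0.214, limma with BH).

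Among the 4 accessory Q module genes 1 was called lower. Ndufa6, a member of the LYR family that binds the mitochondrial acyl carrier protein, had 660.4, 642 and 631 TPM in WT and 539.6, 478 and 502 TPM in DKO (log2 difference -0.35, SE 0.064; adjusted p = 0.0213, limma with BH; chromosome 15, 82350139 to 82354291). The WT values of Ndufa6 were close together and the lowest of them was above the highest DKO value. Ndufa9, a nucleotide-binding accessory subunit, also had separate groups, with 594, 560.1 and 561 TPM in WT and 468, 497 and 509 TPM in DKO, and missed the threshold (adjusted p = 0.0664, limma with BH). Ndufa5 overlapped, at 792, 719 and 733 TPM in WT against 738, 658 and 655 TPM in DKO. Ndufa7 went the other way in its mean, with 576, 457 and 497 TPM in WT and 533, 508 and 636 TPM in DKO, but its interval ran from -0.15 to 0.41 and its groups overlapped.

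In the N module, where NADH is oxidised, none of the 3 core subunits passed the threshold, although in each of them the DKO values lay below the WT values. Ndufv1, which binds NADH and the flavin cofactor, had 720.0, 774 and 709.9 TPM in WT and 633, 679 and 694 TPM in DKO (log2 difference -0.14, 95% interval -0.29 to 0.020). Ndufv2, which carries an iron-sulfur cluster next to the flavin, had 621, 630.1 and 575 TPM in WT and 515, 533 and 539.5 TPM in DKO (difference -0.20; adjusted p = 0.0815, limma with BH). For Ndufs1, the largest core subunit of the matrix arm, the values were 616, 632 and 606 TPM and 506, 543 and 572 TPM, a difference of -0.20 (adjusted p = 0.104, limma with BH). Over the 7 core subunits of both modules the summed level was 4587 ± 107 TPM in WT and 3968 ± 128 TPM in DKO (SD, n = 3 each), and the median log2 difference was -0.20, against -0.21 over the 29 supernumerary subunits without Ndufa4.

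The 5 accessory N module genes were uneven. Ndufv3, a subunit with tissue-specific splice forms, was called lower, with 1099, 943 and 1010.2 TPM in WT and 809, 773 and 833 TPM in DKO (log2 difference -0.34, SE 0.074; adjusted p = 0.0351, limma with BH; chromosome 17, 31520115 to 31531326). The table gives 1 value per gene, so the splice forms of Ndufv3 cannot be read apart. Ndufs4, a subunit whose loss in mice and people causes Leigh-like disease, differed by only -0.091 (95% interval -0.23 to 0.049), with 212, 199 and 194 TPM in WT and 188, 186 and 192 TPM in DKO. Ndufs6, Ndufa12 and Ndufa2 had overlapping groups and differences of -0.031, -0.038 and 0.088. The widest of these 3 intervals was that of Ndufa2 (-0.16 to 0.34), where WT 5 was low at 472 TPM beside 598 and 592 TPM in WT 4 and WT 6. In DKO 7, 8 and 9 Ndufa2 had 573, 629 and 557 TPM.

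**Figure D2:**
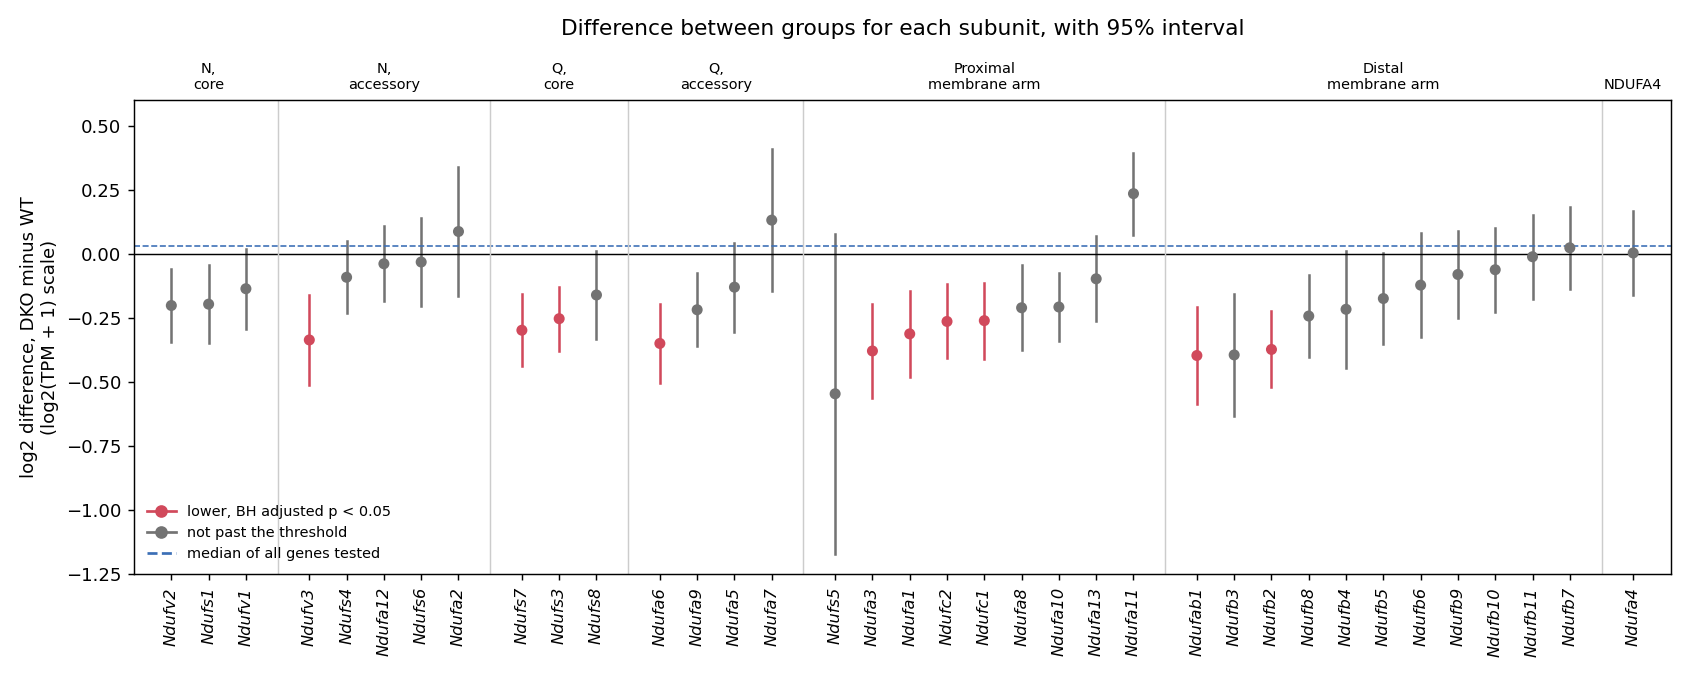
Log2 difference (DKO minus WT, log2(TPM + 1) scale) of 36 of the 37 members with the 95% interval from limma, grouped by position in the complex; red marks the 10 members called lower and the dashed line the median of all genes tested (0.033). Among them Ndufa11 alone has an interval above 0, and the wide interval of Ndufs5 comes with its low value in DKO 9.

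The proximal membrane arm, next to the junction with the matrix arm, held 4 of the 10 called members among its 9 genes, and its summed level was 5373 ± 114 TPM in DKO against 6576 ± 307 TPM in WT (SD, n = 3 each), a ratio of 0.817. This sum includes Ndufs5, whose level in DKO 9 is uncertain, as described below. By library it was 5452, 5424 and 5243 TPM in DKO 7, 8 and 9. Ndufa3, a small single-pass membrane subunit and the second most abundant member, had 2282, 1959.9 and 2214 TPM in WT and 1693, 1585 and 1679.7 TPM in DKO (log2 difference -0.38, SE 0.077; adjusted p = 0.0276, limma with BH; chromosome 7, 3617347 to 3620165). Ndufa1, an X-linked membrane subunit needed for assembly, had 526, 486 and 475 TPM in WT and 426, 382 and 390.3 TPM in DKO (difference -0.31; adjusted p = 0.0373, limma with BH; chromosome X, 37187588 to 37191238). Its level in DKO 9, the DKO library with Y-linked transcripts, lay between those of DKO 7 and DKO 8. Ndufc1 and Ndufc2 encode small subunits of the same region. Ndufc1 had 1172, 1069.9 and 1056 TPM in WT and 905, 921 and 925 TPM in DKO (difference -0.26; adjusted p = 0.0443, limma with BH; chromosome 3, 51405479 to 51408955), with DKO values close to one another. Ndufc2 had 349, 341 and 326 TPM in WT and 269, 284 and 293 TPM in DKO (difference -0.26; adjusted p = 0.0401, limma with BH; chromosome 7, 97400003 to 97407800).

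Ndufa8 and Ndufa10 also had separate groups and did not pass. Ndufa10, which resembles nucleoside kinases, had 830.0, 808 and 810.0 TPM in WT and 678, 712 and 731 TPM in DKO (adjusted p = 0.0627, limma with BH), and Ndufa8, a cysteine-rich subunit facing the intermembrane space, differed by -0.21 (adjusted p = 0.107, limma with BH). Ndufa13 (GRIM-19) had overlapping groups and a difference of -0.097.

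Ndufa11 was the exception of the complex. It encodes a membrane subunit at the flank of the arm that touches complex III in the respiratory supercomplex, and it was the least abundant member. It had 93.1, 90.2 and 86.8 TPM in WT and 112, 104 and 102 TPM in DKO, so that each DKO value lay above each WT value (log2 difference 0.24, 95% interval 0.075 to 0.40; chromosome 17, 56717762 to 56724248). It did not pass the threshold (adjusted p = 0.0733, limma with BH), nor in any of the alternatives run.

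Ndufs5, a cysteine-rich subunit on the intermembrane side, had the lowest fitted difference of all members and was carried there by 1 library. It had 619, 571 and 576 TPM in WT, 504 and 513 TPM in DKO 7 and DKO 8, and 253 TPM in DKO 9 (log2 difference -0.55, SE 0.26; adjusted p = 0.239, limma with BH; chromosome 4, 123712710 to 123718186). Without DKO 9 the difference was -0.21. In the same library BC002163 stood at 442 TPM, against 24.1 to 41.0 TPM in the other 5 libraries. BC002163 is annotated in GENCODE release M21 as a processed pseudogene (GRCm38, chr16:42955631-42955949, plus strand), and its 319 bases align without a gap to the Ndufs5 coding sequence of 321 bases with 99.4% identity. They differ at T81C and A105G, with positions counted from the first base of the Ndufs5 coding sequence and the Ndufs5 base given first. The stretches of 31 bases around both positions, from the GENCODE transcripts, are shown because within the aligned bases only reads across them can tell the rows apart, and the capital marks the differing base.
Ndufs5 at T81C: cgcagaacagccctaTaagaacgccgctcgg
BC002163 at T81C: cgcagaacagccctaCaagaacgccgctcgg
Ndufs5 at A105G: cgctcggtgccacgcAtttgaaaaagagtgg
BC002163 at A105G: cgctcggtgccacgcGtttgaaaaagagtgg
Added together, the rows gave 660, 605 and 615 TPM in WT and 528, 553 and 694 TPM in DKO. The sum overlapped between the groups and DKO 9 became its highest library (log2 difference -0.091; adjusted p = 0.649, limma with BH). TPM is scaled to transcript length, and the GENCODE transcripts compared have 525 bases (Ndufs5) and 319 bases (BC002163). The same read thus adds more TPM to BC002163 than to Ndufs5, which raises the sum most in DKO 9. Neither the overlap of the sum nor the place of DKO 9 in it can be read as a comparison of reads. The level of Ndufs5 in DKO 9 is therefore uncertain, and why the division between the rows differs in that library was not tested. A further 7 members (Ndufa12, Ndufab1, Ndufb3, Ndufb4, Ndufb11, Ndufs3 and Ndufs6) have pseudogene copies with at least 95% identity over at least 75 bases in GENCODE M21, none of which has a row of its own in the table, so reads from them could count toward the member.

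**Figure D3:**
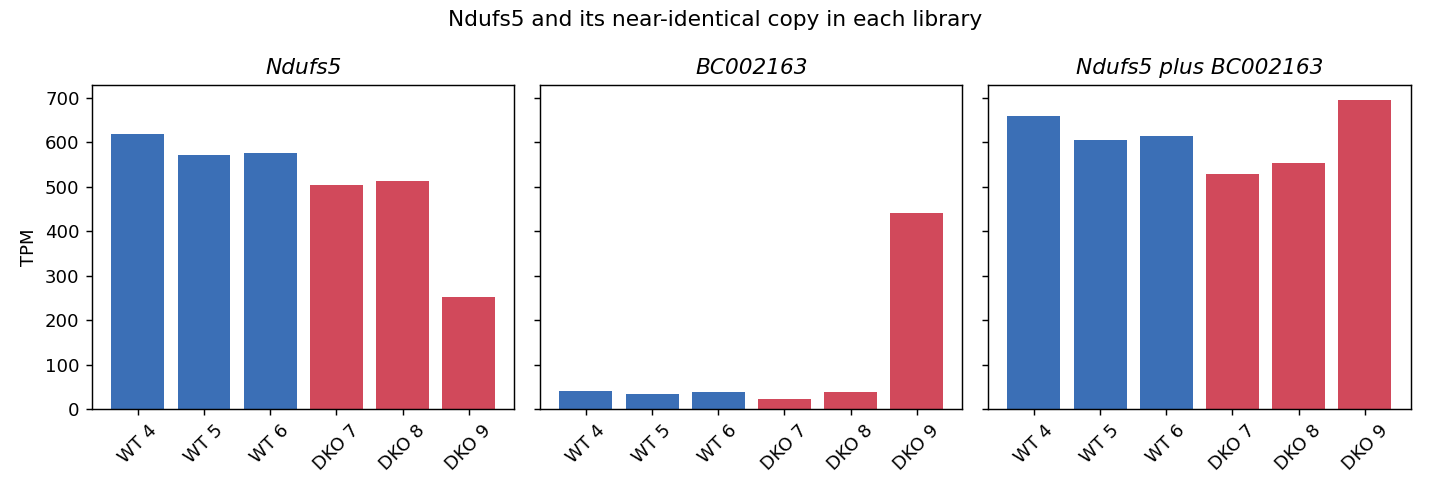
TPM of Ndufs5, of BC002163 and of their sum in each library (WT blue, DKO red). In DKO 9 Ndufs5 is at 253 TPM and BC002163 at 442 TPM, whereas in the other 5 libraries BC002163 stays between 24.1 and 41.0 TPM.

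In the distal membrane arm, which carries the outer proton-pumping units, 2 of 11 genes were called lower. Ndufab1 encodes the mitochondrial acyl carrier protein, which also serves mitochondrial fatty acid synthesis and the formation of iron-sulfur clusters. It had 691, 693 and 642 TPM in WT and 505, 473 and 564 TPM in DKO, the lowest ratio among the called members (0.761; log2 difference -0.40, SE 0.080; adjusted p = 0.0266, limma with BH; chromosome 7, 122086815 to 122101848). Ndufb2, a small accessory subunit of the tip, had 742, 716 and 710.0 TPM in WT and 532, 593 and 550.5 TPM in DKO, with the smallest p of the members (log2 difference -0.37, SE 0.062; adjusted p = 0.0161, limma with BH; chromosome 6, 39592565 to 39599843). Ndufb3 had a difference as large, -0.39, but scattered WT values of 323, 258 and 273 TPM beside 232, 202 and 213 TPM in DKO, and just missed the threshold (adjusted p = 0.0527, limma with BH). It passed with quantile scaling, with array weights and when structural, short RNA and haemoglobin rows were left out of the total. Ndufb8, a subunit often used as a protein marker of assembled complex I, had 1528, 1527 and 1503 TPM in WT and 1342, 1189 and 1329 TPM in DKO. Its groups were separate, and the test gave an adjusted p of 0.067 (limma, BH).

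The other distal genes differed less. Ndufb4 and Ndufb5 had separate groups and differences of -0.22 and -0.17, neither of which passed. Ndufb6, Ndufb7, Ndufb9, Ndufb10 and Ndufb11 overlapped between the groups, with differences from -0.12 (Ndufb6) to 0.024 (Ndufb7). For Ndufb7 and Ndufb11, an X-linked gene, the sign depended on the scaling, with Ndufb7 at -0.011 under median-ratio scaling and Ndufb11 at 0.0019 under quantile scaling.

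Ndufa4 was named as a complex I gene, and its product has since been assigned to complex IV. It was the most abundant member and showed no separation, with 2800.3, 2820.2 and 2643 TPM in WT and 2731, 2622 and 2938 TPM in DKO. Its difference was 0.0038 with a 95% interval of -0.16 to 0.17, and its sign changed with median-ratio scaling (-0.032). Without Ndufa4 the summed level of the other 36 members was 26174 ± 910 TPM in WT and 22874 ± 507 TPM in DKO (SD, n = 3 each), a ratio of 0.874. The related gene Ndufa4l2, which is induced by low oxygen, was far lower, at 28.5, 24.3 and 29.01 TPM in WT and 19.5, 28.98 and 17.3 TPM in DKO, and missed the threshold (adjusted p = 0.321, limma with BH).

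By library, the median deviation of the 37 members from the WT mean was -0.21, -0.20 and -0.16 on the log2 scale in DKO 7, DKO 8 and DKO 9, while the WT libraries lay at 0.053, -0.029 and -0.029. The number of members below all WT values was 25 in DKO 7, 31 in DKO 8 and 26 in DKO 9, and 2, 2 and 3 members were above all WT values. Of all genes tested 35.8%, 24.4% and 24.9% lay below all WT values in these libraries, and 28.3%, 41.3% and 37.8% above. DKO 9 shares its Y-linked transcripts with the WT libraries. In a fit of DKO 9 against WT alone the median difference over the members was -0.16 and 0 were called. A term for Y-linked transcripts gave -0.16 with only Ndufs5 called, a gene set apart in DKO 9 as described above.

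**Figure D4:**
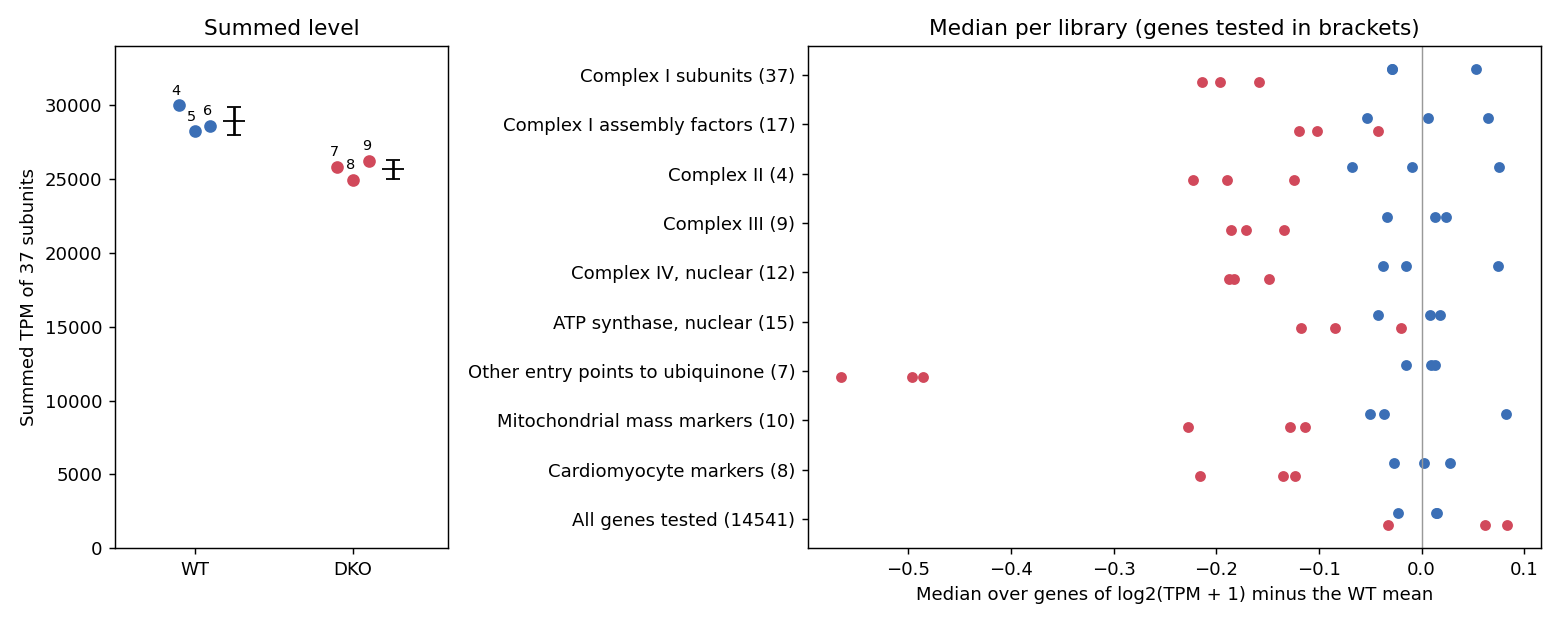
Left, summed TPM of the 37 members in each library (numbers are replicates; bars are mean and SD of 3 libraries). Right, median over the genes of a list of log2(TPM + 1) minus the WT mean, 1 point per library (WT blue, DKO red); for complex I the DKO points lie between -0.21 and -0.16.

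Genes that build or surround the complex were compared from lists of the pathway. To set beside the counts of each list below, 4.22% of all genes tested were called lower and 6.51% higher. At an unadjusted p under 0.05 (limma) 11% were lower and 16% higher, and 45.3% had a difference below 0. None of 17 complex I assembly factors tested was called (limma; 4 were lower and 0 higher at an unadjusted p under 0.05, and 14 had a difference below 0), and their median log2 difference was -0.092. In 5 of the 17 each DKO value lay below each WT value and in 1 above, where 13.8% and 19.1% of all genes tested did so. Among the 5, Tmem186 had the largest difference (-0.32; adjusted p = 0.162, limma with BH). Ndufaf6 and Ndufaf1 were also among them, at 31.96 ± 1.85 against 26.8 ± 0.443 TPM and 59.00 ± 4.202 against 49.7 ± 3.25 TPM. Neither passed (adjusted p = 0.104 and 0.127, limma with BH). Acad9, an assembly factor related to acyl-CoA dehydrogenases, had all DKO values above WT (53.1 ± 0.993 against 60.1 ± 4.78 TPM; adjusted p = 0.224, limma with BH).

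The other respiratory complexes had smaller or similar medians. By summed level the ratio of the DKO to the WT mean was 0.867 for complex II and 0.864 for nuclear complex IV genes. It was 0.929 for complex III and 0.928 for the ATP synthase, beside 0.886 for the complex I members. Complexes II and IV were thus slightly lower than complex I by this measure. Complex II gave 1 gene lower and 0 higher of 4 (Sdha, the flavoprotein of succinate dehydrogenase, 985 ± 45.3 to 765 ± 27.6 TPM), with a median log2 difference of -0.17. In complex III 1 of 9 was lower (Uqcrc1, a core protein, 1228 ± 30.9 to 919 ± 87.7 TPM) and 0 higher, with a median of -0.19. Nuclear genes of complex IV had 3 lower and 0 higher of 12 (Cox7a1, Cox7c and Cox8b) and a median of -0.14. Those of the ATP synthase had 1 lower (Atp5e) and 0 higher of 15 and a median of -0.072. No test of complex I against these lists was run. Cox7a1 kept its call whichever library was left out, Sdha and Uqcrc1 in 2 of those 6 fits, Cox8b and Atp5e in 1 and Cox7c in 0. Quantile scaling ended the calls of Cox7a1, Cox7c, Cox8b and Atp5e (adjusted p = 0.0741, 0.141, 0.102 and 0.172, limma with BH), and the difference of Cox7a1 was then -0.38 in place of -0.58.

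Enzymes that feed electrons to ubiquinone without complex I were read beside it. Of 7 tested 4 were lower and 0 higher, with a median log2 difference of -0.49. The electron transfer flavoprotein genes Etfa (753 ± 22.2 to 523 ± 14.7 TPM) and Etfb (1001 ± 15.3 to 712 ± 0.769 TPM) fell, as did their ubiquinone oxidoreductase Etfdh (661 ± 14.9 to 445 ± 26.2 TPM) and the sulfide oxidising enzyme Sqrdl (52.7 ± 2.39 to 29.2 ± 3.63 TPM; adjusted p = 0.00678, limma with BH). The ETF genes take electrons from fatty acid oxidation. These 4 calls held whichever library was left out, and were lost with replicate 7 placed with WT and with a term for Y-linked transcripts.

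Of 11 regulators of respiratory genes 1 was called. Esrrb, an oestrogen-related receptor, rose from 15.9 ± 1.203 to 22.95 ± 0.411 TPM (adjusted p = 0.0211, limma with BH), a call kept only when WT 4 was the library left out. The coactivator Ppargc1a had 58.1, 59.5 and 43.5 TPM in WT and 70.9, 77.2 and 75.3 TPM in DKO, all DKO values being higher (adjusted p = 0.0605, limma with BH). Tfam, the mitochondrial transcription factor, had 27.6 ± 0.421 TPM in WT and 21.99 ± 1.17 TPM in DKO (adjusted p = 0.0568, limma with BH), and Gabpa and Esrra had all DKO values below WT (differences -0.28 and -0.21). Nrf1 stood at 16.7 ± 2.03 and 16.8 ± 0.744 TPM.

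Markers of mitochondrial mass and of the cell types in the heart are given beside the subunits. The lists are short, and 4.22% of all genes tested were called lower and 6.51% higher. Of 10 mitochondrial mass markers 1 was lower (Hspd1, the matrix chaperonin, 374 ± 9.999 to 297 ± 8.14 TPM; lost without WT 4 or WT 5) and 0 higher, with a median log2 difference of -0.14. Cardiomyocyte markers had 2 lower (Tnni3 and Ryr2) and 0 higher of 8, with a median of -0.16. The 7 fibroblast markers had 4 higher and 0 lower, with summed levels of 890 to 920 TPM in WT and 1125 to 1389 TPM in DKO, and the 6 macrophage markers 2 higher and 0 lower, with 90.05 to 130 TPM and 184 to 250 TPM. Of 5 endothelial markers 2 were lower (491 to 552 TPM summed in WT, 438 to 497 TPM in DKO), and of 5 smooth muscle and pericyte markers 1 (577 to 611 and 469 to 519 TPM). Lymphocyte markers were near 0 (4.92 to 12.8 TPM in WT and 4.31 to 5.64 TPM in DKO, summed over 6 genes), with 1 of the 2 tested lower (Cd79a). Erythroid markers summed to 6042 to 38458 TPM in WT and 1781 to 6763 TPM in DKO, with 0 of 5 called. In bulk tissue fewer cells of a type and less RNA per cell cannot be told apart, and the part of these shifts in the complex I result was not tested.

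The promoters of the members were also read for motifs of factors known to act on respiratory genes. The motif shares are read from the reference sequence and do not depend on the genotype. Whether they bear on the difference between the groups was not tested. RefSeq promoter windows (GRCm38.p6, 250 bases before to 50 after the start) were found for 33 of 37 members, in 35 windows. The motifs, searched on both strands, were GCGC followed by any pair of bases and GCGC for NRF1, AAGGTCA for oestrogen-related receptors, CCGGAAG for GABPA and AAGATGG for YY1. The NRF1 letters were in 28.6% of member windows, in 11.9% of windows of all genes tested and in 6.23% of all windows. YY1 letters were in 20%, 6.76% and 6.34%, those of the oestrogen-related receptors in 8.57%, 3.39% and 4.72%, and those of GABPA in 11.4%, 15.7% and 8.86%. Each YY1 match in the members began at base 23 to 39 after the start, not before it. At least 1 of the 4 was in 60% of member windows, 32.6% of windows of all genes tested and 23.3% of all windows. Among the members it was in 7 of 10 windows of those called and in 14 of 25 of the others, whereas the NRF1 letters alone were in 2 of 10 and 8 of 25. A match is a description of letters and does not show binding.

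Bases before the start are given for the 4 called members with the smallest p (Ndufb2, Ndufa6, Ndufs7 and Ndufab1). They are also given for Ndufa4, the member with a difference nearest 0. From the 250 bases before each start only the longest run outside every exon annotated in GENCODE M21 is printed. The Ndufs7 bases precede the RefSeq start used here but lie inside the annotated gene, in an intron of a longer transcript (Ndufs7-202) that starts further upstream. The window of Ndufb11, the next nearest 0, lies within exons of the neighbouring gene Rbm10 and is not printed. Sequences are from RefSeq (GRCm38.p6), each read 5′ to 3′ toward its gene on the strand given, and capitals mark the motif letters.
Ndufb2 (chr6:39592315-39592564, plus strand): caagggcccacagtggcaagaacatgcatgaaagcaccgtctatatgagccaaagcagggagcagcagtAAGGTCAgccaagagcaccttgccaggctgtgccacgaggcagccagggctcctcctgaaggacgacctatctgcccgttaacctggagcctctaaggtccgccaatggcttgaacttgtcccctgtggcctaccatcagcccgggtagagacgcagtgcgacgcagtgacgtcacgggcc
Ndufa6 (chr15:82354323-82354541, minus strand): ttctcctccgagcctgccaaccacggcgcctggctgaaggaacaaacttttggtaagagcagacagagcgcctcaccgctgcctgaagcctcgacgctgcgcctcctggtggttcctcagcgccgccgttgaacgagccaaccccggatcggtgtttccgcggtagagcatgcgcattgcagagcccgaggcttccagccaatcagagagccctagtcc
Ndufs7 (chr10:80249205-80249311, plus strand): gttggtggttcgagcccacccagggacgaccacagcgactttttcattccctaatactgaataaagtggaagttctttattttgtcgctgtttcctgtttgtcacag
Ndufab1 (chr7:122101887-122102098, minus strand): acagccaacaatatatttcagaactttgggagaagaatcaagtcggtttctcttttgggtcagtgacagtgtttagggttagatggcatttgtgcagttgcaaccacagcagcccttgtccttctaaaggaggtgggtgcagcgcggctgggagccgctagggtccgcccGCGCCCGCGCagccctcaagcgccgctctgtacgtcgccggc
Ndufa4 (chr6:11907498-11907700, minus strand): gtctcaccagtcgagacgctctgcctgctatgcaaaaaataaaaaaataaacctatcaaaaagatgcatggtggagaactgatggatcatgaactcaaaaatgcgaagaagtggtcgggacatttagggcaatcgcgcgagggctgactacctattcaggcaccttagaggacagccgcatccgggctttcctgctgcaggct
The receptor motif of Ndufb2 begins 181 bases before the start and the NRF1 letters of Ndufab1 80 bases before it. In Ndufa6 the NRF1 letters begin at base 24 after the start, and in Ndufs7 the YY1 letters at base 25, both outside the printed bases. Ndufa4 and Ndufb11 held none of the 4 motifs in the window. Other members not called did hold them, in 14 of 25 windows as given above, among them Ndufb7, Ndufs6 and Ndufa11.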

How the data were processed

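The authors deposited 1 table of TPM values per gene and library. Tools named per the submitters' processing notes are kallisto 0.44.0 and bcl2fastq, with the build mm10. How transcripts were summed, and on which annotation, is not given in the sources used here. Read depth is unknown because TPM carries no counts, and abundant RNAs that differ move the remaining TPM values. Values were compared as log2(TPM + 1), which understates changes of low genes, with limma 3.58.1 (eBayes trend on; R 4.3.3). Genes needed 1 TPM or more in 3 or more libraries, with p-values BH adjusted over all genes tested, threshold 0.05. The fit was tested on simulated data with planted changes far larger than those of the members, so that test does not cover differences of the size reported here.

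Groups follow the titles. The labels do not say that libraries are separate animals. The p-values set the group difference against the spread between these libraries, which may be technical. In eBayes that spread is drawn toward a trend over all genes tested. Members, lists and tests were chosen with earlier results of these data known. Named in full are called members, core subunits, Ndufa4, the 3 highest and 3 lowest not called, and from other lists up to 4 called genes; other genes named were chosen after their values were seen. The values of 1 core subunit enter the counts and sums and are not reported here. Of the listed pathway genes Dmac1 and Sqor were matched by the older symbols Tmem261 and Sqrdl, and Coa1 was not used here. Alternatives were pseudocount 0.1, no filter, a 5 TPM filter, median-ratio and quantile scaling, rescaling after haemoglobin, structural and short RNA rows were removed, array weights, no trend, leaving out each library, moving replicate 7 to WT, a Y-linked term, and libraries with Y-linked transcripts only. Near-identical copies were sought with blastn 2.17.0, and summing Ndufs5 with BC002163 was added after seeing the data. Figures used matplotlib 3.10.9 in python 3.11.15.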

Additional observations from a re-analysis of the deposited data

How the results depend on the processing

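The median log2 difference of the members stayed below 0 in each alternative, with 31 to 34 of the 37 members below 0. The calls were less steady. Of all genes, 622 to 877 were called when 1 library was left out, 1 with replicate 7 counted as WT, 92 with the Y-linked term and 12 in the libraries with Y-linked transcripts only. Of the members, the number called lower was 0 to 3 with 1 library left out, 6 without a filter, 0 without trend, 0 with replicate 7 as WT, 1 with the Y-linked term and 0 in the libraries with Y-linked transcripts; the other settings gave 10 to 15, and none gave a member called higher. Fewer libraries lower the power of these fits by construction. For the fits without trend, without a filter and with replicate 7 as WT the cause was not tested. Which members were called also changed. Ndufa1 lost its call with median-ratio scaling, and Ndufa3 and Ndufs7 with quantile scaling (adjusted p = 0.0503, 0.0739 and 0.0549, limma with BH). Ndufa9 passed with median-ratio scaling, quantile scaling and rescaling. Ndufa10 passed with median-ratio scaling and rescaling (adjusted p = 0.031 and 0.0341, limma with BH). Ndufa8 and Ndufs1 passed with median-ratio scaling (adjusted p = 0.0347 and 0.0481, limma with BH) and Ndufb8 with rescaling (adjusted p = 0.0388, limma with BH). Ndufs3, Ndufs7, Ndufc1 and Ndufc2 kept their calls in 0 of the 6 fits with 1 library left out. The DKO 9 fit assumes that a lone library varies like the WT group. The median difference moved to -0.12 with replicate 7 as WT and to -0.16 with the Y-linked term and in the libraries with Y-linked transcripts; left-out libraries gave -0.22 to -0.18. Signs reversed only for members near 0. Ndufa4 was at -0.032 with median-ratio scaling and -0.014 with rescaling, and its left-out range was -0.041 to 0.041. Ndufb7 was at -0.011 with median-ratio scaling, -0.0053 with array weights, -0.052 with replicate 7 as WT, -0.018 with the Y-linked term and -0.017 in Y-linked libraries (left out -0.022 to 0.055). Ndufb11 was at 0.0019 with quantile scaling, 0.024 with the term and 0.024 in Y-linked libraries (left out -0.049 to 0.048), and Ndufa12 at 0.027 and 0.029 in the last 2 fits. Left-out ranges also crossed 0 for Ndufs6 (-0.087 to 0.018) and Ndufa2 (-0.024 to 0.15). No paired analysis was possible because the groups share no replicate number. Depth is unknown, so no counting error can be given.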

Other observations

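The size of the difference followed neither the level nor the length of the transcript closely. Across the 37 members Spearman's rho between the log2 difference and the WT mean TPM was -0.10, and between the log2 difference and the transcript length in GENCODE M21 it was -0.18. These are descriptions over genes measured in the same 6 libraries, and genes are not independent replicates.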
